A study of Mus musculus with 8 samples.

Results

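The genes described here encode the integrin receptors, the laminins, fibronectin and osteopontin, the proteins by which cells hold on to each other and to the matrix around them. The set was fixed as 38 gene symbols, 26 integrin subunits, 10 laminin chains, Fn1 and Spp1, and each gene was read from the probe set that carries its symbol alone and has the highest mean over the 8 arrays. Such a probe set was found for 37 of the 38, out of 19938 genes named on the array in this way. Spp1, the gene of osteopontin, was not analysed here. The samples were uteri of young virgin C57BL/6 mice, an inbred laboratory strain, taken at 22 h on day 3 (the mating night is day 0), just before embryos attach. In the pregnant group (n = 4) the females had been mated with fertile stud males, blastocysts were flushed from the horns and no blue dye site of attachment was seen. In the pseudopregnant group (n = 4) the males had been vasectomised, so that the hormones of early pregnancy act in a uterus without embryos. The males differed between the groups together with the embryos, and the effects of the 2 cannot be told apart. Total RNA of whole uterine tissue was hybridised, 1 array for each sample labelled as a biological replicate, and the submitters chose the samples of best RNA quality.

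Each integrin pairs an alpha with a beta subunit across the cell membrane. The pair decides which ligand is bound: collagens, laminins, proteins with the short peptide arginine-glycine-aspartate (RGD) such as fibronectin and osteopontin, or surface proteins of other cells. Laminins are cross-shaped trimers of an alpha, a beta and a gamma chain that form the sheet of the basement membrane under epithelium and around muscle, fat and vessel cells. In the uterus the embryo first meets the luminal epithelium, later crosses its basement membrane and settles in a stroma rich in fibronectin, and integrins that bind RGD have long been studied at that step. A distinct set of integrins, those built on Itgb2 or Itgb7, belongs to white blood cells.

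The promoters of Itgam and Itgax are shown because these neighbouring leukocyte genes were both higher in the pregnant group, as described below. The sequences are RefSeq's for build GRCm38.p6, each the 250 bases before the annotated start, on the strand of the gene. Capitals mark GAGGAA, or TTCCTC where the match is on the opposite strand, the core bound by PU.1, a transcription factor of myeloid cells.
Itgam, chr7:128062390-128062639, plus strand: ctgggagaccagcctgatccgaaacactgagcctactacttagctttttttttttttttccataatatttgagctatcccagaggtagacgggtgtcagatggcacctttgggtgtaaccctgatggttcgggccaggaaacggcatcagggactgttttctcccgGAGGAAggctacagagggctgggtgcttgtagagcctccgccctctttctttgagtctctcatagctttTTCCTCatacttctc
Itgax, chr7:128129300-128129549, plus strand: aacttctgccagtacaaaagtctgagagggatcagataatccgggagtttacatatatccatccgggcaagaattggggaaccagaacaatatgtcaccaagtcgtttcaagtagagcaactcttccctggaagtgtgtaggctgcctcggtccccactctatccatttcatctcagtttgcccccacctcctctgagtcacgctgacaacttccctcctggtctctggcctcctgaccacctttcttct
The Itgam window held 2 matches, starting 84 and 15 bases before the annotated start when counted to the far end of each match, on the plus and the minus strand. The Itgax window held 0, which says only that these letters are not in this window. Among all 32851 promoters of this length in the table, 23.3% held the motif on either strand. Promoters were found for 24 of the 38 genes, 28 windows in all, and 14 windows held the motif, among them that of Itgav with 2 matches and those of several laminin chains. No window was available for Itgb2, Itgal, Itgad and Lamc1, of which Itgb2 and Lamc1 also rose. A match is a description of letters and not of a site in use.

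Of the 37 genes with a probe set, 35 passed the intensity filter, which asks that 4 or more of the 8 arrays exceed their 40th percentile (5.23 to 5.32 in log2 intensity). In 32 of the 35 all 8 arrays lay above that line. The epithelial integrin subunit Itgb6 and the laminin chain Lamb3 did not pass, with log2 intensities of 5.07 ± 0.31 against 5.25 ± 0.083 and 5.24 ± 0.013 against 5.28 ± 0.11 (SD, n = 4 each), the pregnant group given before the pseudopregnant here and below. All values below are log2 of the deposited intensity unless a fold is named, and the level of one gene cannot be set against that of another. A gene is said to have risen or fallen where its limma p, adjusted over 17494 probe sets, was under 0.05.

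In the pregnant uterus 4 of the 35 genes rose and 0 fell by limma, with 9 higher and 2 lower at unadjusted p below 0.05. The 4 were the leukocyte integrin subunits Itgam, Itgax and Itgb2 and the laminin chain Lamc1. Over all kept probe sets 1.82% passed (1.41% rose and 0.412% fell), and at an unadjusted p under 0.05 14.3% were higher and 9.43% lower. Among the genes described here 11.4% rose. The shares at an unadjusted p were 25.7% higher and 5.71% lower. The 2 groups of arrays did not overlap, with the pregnant group above, in 7 of the 35 genes (20%), against 9.23% of all kept probe sets. They did not overlap with the pregnant group below in 1 gene (2.86%), against 5.38%. The median difference was 0.04 over the 35 genes and 0.0014 over all named genes kept. Of the 35 differences, 17 were smaller than 0.1 in either direction. Of the 7 kept leukocyte subunits 3 rose (42.9%), with a median difference of 0.35 over the 7. Of the other 28 genes 1 rose (3.57%), with a median difference of 0.04. The genes and lists were chosen with earlier results of these data known, so these shares are descriptions only.

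**Figure D1:**
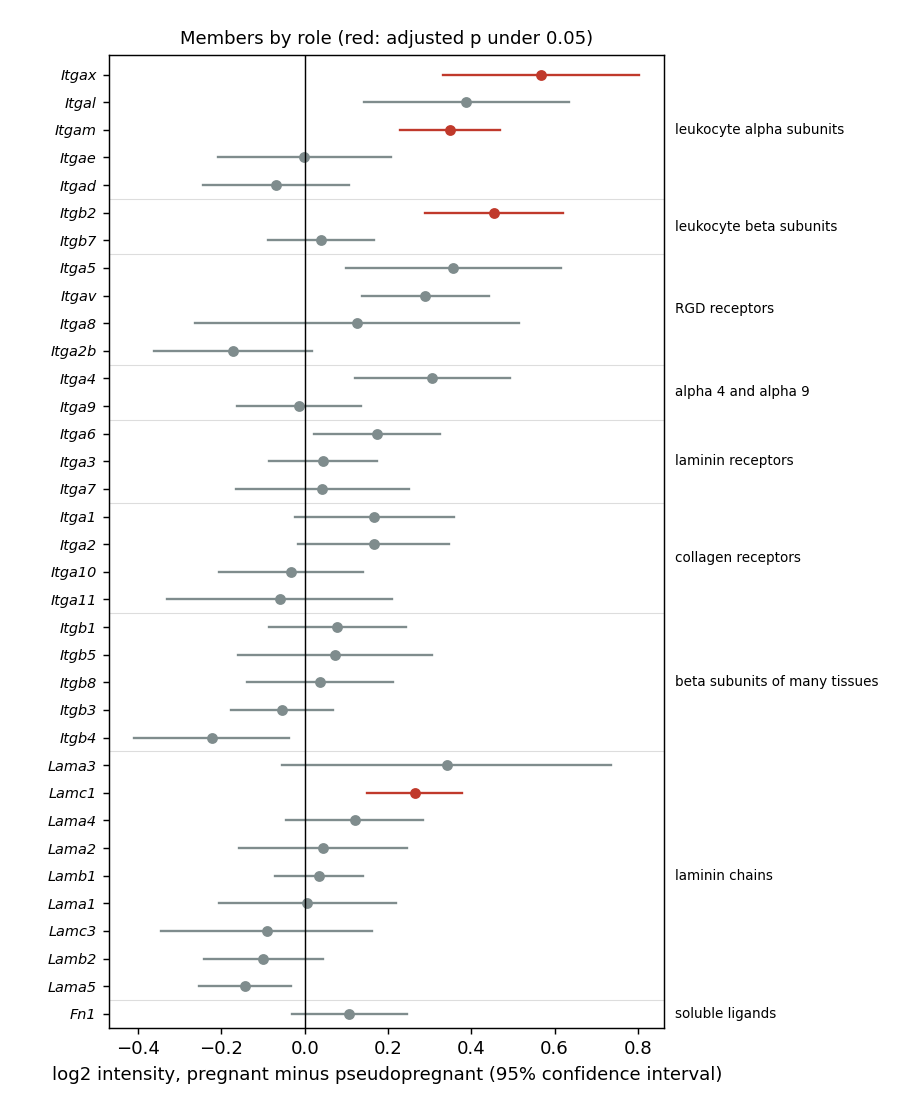
Difference in log2 intensity (pregnant minus pseudopregnant uterus, n = 4 each) of the 35 kept genes, grouped by role, with 95% confidence intervals from limma as lines. Red marks an adjusted p under 0.05, reached by Itgax, Itgam, Itgb2 and Lamc1; most other intervals cross 0.

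The count of genes that rose fell when any single array was left out. Leaving out pregnant replicates 1, 2, 3 and 4 in turn gave 1, 1, 2 and 1. Leaving out pseudopregnant replicates 1, 2, 3 and 4 gave 0, 0, 0 and 3. The count over all kept probe sets fell as well, from 247 with all 8 arrays. It was 63, 78, 170 and 52 without the pregnant and 27, 51, 28 and 153 without the pseudopregnant replicates. The differences themselves moved little: over the 8 fits without a single array they lay between 0.32 and 0.37 for Itgam, 0.42 and 0.50 for Itgb2, 0.49 and 0.66 for Itgax and 0.25 and 0.29 for Lamc1. The adjusted p lay between 0.028 and 0.066 for Itgam, 0.038 and 0.073 for Itgb2, 0.020 and 0.085 for Itgax, and 0.055 and 0.099 for Lamc1. Pregnant replicate 2 was the highest of the 8 arrays for 12 of the 35 genes and the lowest for 8. Pseudopregnant replicate 1 was the lowest for 9. Of all arrays, pregnant replicate 2 lay farthest from the mean of its group over these genes, by 0.16 on average, against 0.069 to 0.094 for the other 7.

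**Figure D2:**
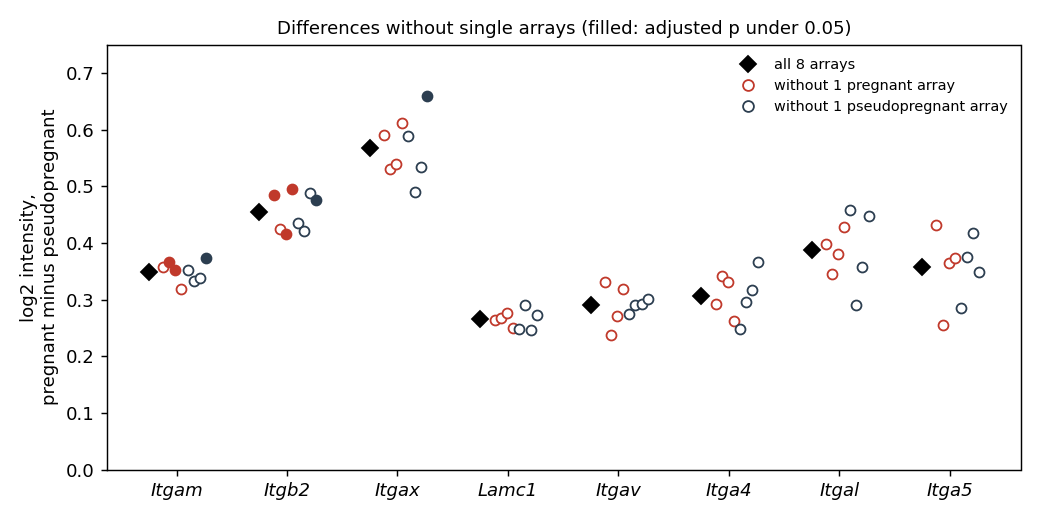
Difference in log2 intensity (pregnant minus pseudopregnant) of 8 genes with all 8 arrays (diamonds) and without single arrays (circles, red without a pregnant and dark without a pseudopregnant array). Filled circles passed an adjusted p of 0.05; the differences of Itgam stay between 0.32 and 0.37, while the calls come and go.

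Itgb2 is the shared beta subunit of the leukocyte integrins, without which Itgal, Itgam, Itgax and Itgad cannot reach the cell surface. Its log2 intensities were 6.58, 6.76, 6.78 and 6.55 in pregnant replicates 1 to 4 and 6.15, 6.11, 6.31 and 6.27 in pseudopregnant replicates 1 to 4. Every pregnant array lay above every pseudopregnant array. Itgb2 rose by 0.46 ± 0.074 (SE), 1.37-fold, with a limma adjusted p of 0.026. Itgam, the alpha subunit of complement receptor 3 of macrophages, neutrophils and NK cells, had values of 6.08, 6.05, 6.10 and 6.20 against 5.76, 5.71, 5.72 and 5.83. Again the groups did not overlap, and both were narrow (SD 0.062 and 0.054, n = 4 each). Itgam rose by 0.35 ± 0.054 (SE), 1.27-fold (limma adjusted p = 0.024). Itgax, the alpha subunit of complement receptor 4, carried by dendritic cells and some macrophages, had values of 6.08, 6.25, 6.23 and 6.01 against 5.63, 5.34, 5.47 and 5.85. The pseudopregnant arrays spread more (SD 0.22) than the pregnant arrays (SD 0.12), with pseudopregnant replicate 4 nearest to the pregnant group. Itgax rose by 0.57 ± 0.11 (SE), 1.48-fold, the largest difference among the 35 genes (limma adjusted p = 0.035). Of the 8 fits without a single array, the call held in 4 for Itgb2, 3 for Itgam and 1 for Itgax.

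Itgal, the alpha subunit by which lymphocytes and NK cells bind the adhesion molecules Icam1 and Icam2, had values of 6.11, 6.27, 6.16 and 6.02 against 5.96, 5.46, 5.66 and 5.93. The groups did not overlap, but pregnant replicate 4 and pseudopregnant replicate 1 lay close together and the pseudopregnant spread was wide (SD 0.24). The difference was 0.39 ± 0.11 (SE) and did not pass (limma adjusted p = 0.082). The remaining leukocyte subunits had differences near 0. Itgad, whose product marks some tissue macrophages, had 5.76, 6.05, 5.86 and 5.71 against 5.95, 5.90, 6.00 and 5.81, and the difference was -0.07 (95% confidence interval -0.25 to 0.11). In the RefSeq gene order Itgam, Itgax and Itgad follow one another with 0 protein-coding genes between them, so neighbours of this cluster gave 0.35, 0.57 and -0.07. Their products are close relatives and cross-hybridisation was not tested. A second probe set of Itgad lay below the filter, with a difference of -0.11. Itgae, the alpha subunit that tethers T cells and some dendritic cells to E-cadherin of epithelium, differed by -0.0014 (95% confidence interval -0.21 to 0.21), with 5.38 ± 0.16 against 5.38 ± 0.14 (SD, n = 4 each). Itgb7, the partner of Itgae and of Itga4 on lymphocytes that home to mucosa, differed by 0.04 (95% confidence interval -0.089 to 0.17). Both lay near the filter line, with 1 array of each group below it, where RMA can understate a difference.

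**Figure D3:**
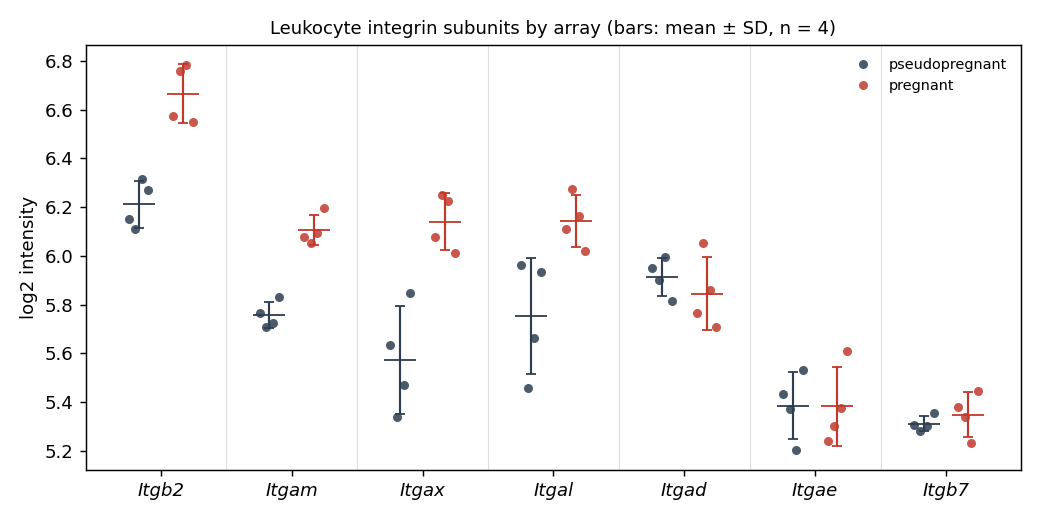
Log2 intensity of the 7 leukocyte integrin subunits on each array (points) with group means ± SD (bars, n = 4 each). Pregnant points lie above all pseudopregnant points for Itgb2, Itgam, Itgax and Itgal, and the groups overlap for Itgad, Itgae and Itgb7.

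Many but not all markers in 3 lists of white blood cell genes were higher in the pregnant group as well. Of 8 genes common to all leukocytes 2 rose, Ptprc by 0.68 ± 0.11 (SE, limma adjusted p = 0.026) and Cd53 by 0.85 ± 0.11 (0.013). The summed linear intensity of the 8 was 1267 to 1632 on the pregnant and 931 to 1174 on the pseudopregnant arrays. Of 14 markers of macrophages and dendritic cells 13 were kept and 8 rose, namely C1qb, C1qc, Adgre1, H2-Ab1, H2-Aa, Cd74, Mrc1 and Cd68. The rises ran from 0.35 (Cd74) to 0.62 (Adgre1). Of the 13 differences 12 were above 0 and 1 was below 0, at -0.27. The summed intensity of all 14 was 3206 to 3716 against 2431 to 2744. Of 11 markers of NK and T cells 10 had a probe set, 7 were kept and 4 rose, namely Gzmb, Il2rb, Ncr1 and Prf1. The summed intensity of the 10, those below the filter included, was 605 to 998 against 398 to 543. The T cell genes Cd3e (-0.15, limma adjusted p = 0.30) and Cd3g (0.04, 0.90) did not pass, and Cd4 and Cd8a lay below the filter. Of 11 markers of neutrophils and eosinophils only Siglecf was kept, with a difference of -0.0033, while S100a8, Ly6g, Elane and Mpo lay below the filter. The sum of the 5 leukocyte alpha subunits was 296 to 326 against 238 to 278, and that of Itgb2 and Itgb7 was 137 to 149 against 108 to 119. Pregnant replicate 2 was the highest array for the sums of all 3 marker groups with rises, and of both integrin groups. In whole tissue, more cells of a type and more RNA per cell cannot be told apart. The part of leukocyte number in the rise of the subunits was not tested.

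**Figure D4:**
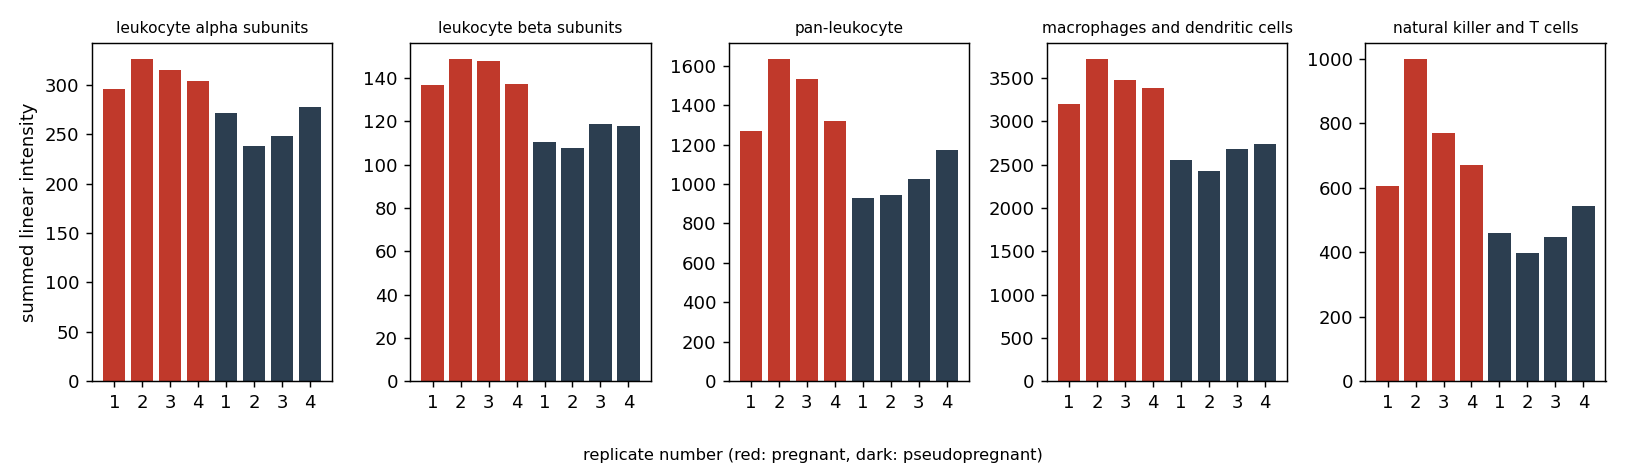
Summed linear intensity on each array (bars, replicate number on the horizontal axis, red pregnant and dark pseudopregnant) of the 5 leukocyte alpha subunits, the 2 leukocyte beta subunits and 3 marker lists. Every pregnant bar is above every pseudopregnant bar in all 5 panels.

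Itga4 stands between the leukocyte and the tissue integrins. Its product, paired with Itgb1 or Itgb7, binds the vessel adhesion molecule Vcam1 and fibronectin, and is carried by lymphocytes, monocytes and other cells. The values were 6.83, 6.69, 6.71 and 6.92 against 6.31, 6.45, 6.51 and 6.66. The groups did not overlap, by a narrow margin between pregnant replicate 2 and pseudopregnant replicate 4, and the difference of 0.31 ± 0.083 (SE) did not pass (limma adjusted p = 0.074). Its relative Itga9 differed by -0.01 (95% confidence interval -0.16 to 0.14). The ligand Vcam1 differed by -0.26 ± 0.11 (SE, limma adjusted p = 0.19).

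The integrins that bind RGD include the pair formed by Itgav with Itgb3, which recognises osteopontin and vitronectin, and the fibronectin receptor formed by Itga5 with Itgb1. Itgav had values of 8.44, 8.72, 8.62 and 8.48 against 8.23, 8.28, 8.28 and 8.31. The groups did not overlap, and the pseudopregnant arrays lay close together (SD 0.034) while the pregnant arrays spread more (SD 0.13). The difference of 0.29 ± 0.068 (SE), 1.22-fold, did not pass (limma adjusted p = 0.058). It passed with the stricter intensity filter (0.047) and with a trended variance (0.042), within a range of 0.042 to 0.13 over 18 alternatives. Itga5 had 8.75, 9.27, 8.94 and 8.92 against 8.40, 8.67, 8.80 and 8.59, so that pregnant replicate 1 lay below pseudopregnant replicate 3. Its difference was 0.36 ± 0.12 (SE, limma adjusted p = 0.11), and 0.26 without pregnant replicate 2, its highest array. Itga8, which binds nephronectin and fibronectin on smooth muscle and mesenchyme, ran from 5.90 to 6.82 on the pregnant and from 6.03 to 6.54 on the pseudopregnant arrays. Its difference of 0.13 (95% confidence interval -0.26 to 0.52) became -0.02 without pregnant replicate 2. Itga2b, the alpha subunit of the platelet fibrinogen receptor, differed by -0.17 ± 0.085 (SE, limma adjusted p = 0.25). The platelet markers Pf4 (0.12), Gp9 (-0.11) and Gp5 (0.05) did not pass either, with limma adjusted p of 0.37, 0.36 and 0.71.

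The kept beta subunits that pair with these alpha chains, Itgb1, Itgb3, Itgb5 and Itgb8, had differences of 0.08 or less in size, and none passed; Itgb6, another partner of Itgav, lay below the filter and was not tested. Itgb1, the partner of most alpha subunits, had values of 9.17, 9.22, 9.16 and 9.38 against 9.02, 9.12, 9.29 and 9.20. The groups overlapped and the difference was 0.08 (95% confidence interval -0.085 to 0.24, 0.94-fold to 1.18-fold). Itgb3 differed by -0.05 (95% confidence interval -0.18 to 0.067). Its values were 7.59, 7.53, 7.68 and 7.68 against 7.64, 7.65, 7.72 and 7.69, and the groups overlapped in part. Itgb5, which with Itgav binds vitronectin, was 8.40 in pregnant replicate 2 and 7.869 to 7.996 on the other 7 arrays, and its difference of 0.07 became -0.05 without that array. Itgb8, which with Itgav activates latent TGF-beta, differed by 0.04 (95% confidence interval -0.14 to 0.21; -0.0103 with a repeated quantile normalization and -0.0024 with cyclic loess).

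Integrins that bind laminin hold epithelium and muscle to the basement membrane. Itga6 had values of 8.97, 8.86, 8.97 and 8.92 against 8.60, 8.74, 8.89 and 8.79. Pseudopregnant replicate 3 lay above pregnant replicate 2, and the difference of 0.17 ± 0.068 (SE) did not pass (limma adjusted p = 0.16). Its partner in the hemidesmosome, Itgb4, lay in the other direction, with 7.71, 7.33, 7.56 and 7.61 against 7.87, 7.70, 7.84 and 7.70. The groups overlapped through pregnant replicate 1, and the difference was -0.22 ± 0.083 (SE, limma adjusted p = 0.15), -0.15 without pregnant replicate 2. Itgb4 is an epithelial gene, and of 10 measured markers of luminal and glandular epithelium 8 had differences below 0 and 0 passed by limma (unadjusted p under 0.05 in 4, all lower, and 0 higher), with a median of -0.23. Their summed intensity was 2293 to 2519 on the pregnant and 2387 to 2998 on the pseudopregnant arrays, and their part in the value of Itgb4 was not tested. The 4 with the smallest p were Cldn3 (-0.44), Krt19 (-0.46), Elf3 (-0.40) and Cldn7 (-0.37). Itga3, a laminin receptor of epithelium, differed by 0.04 (95% confidence interval -0.086 to 0.17), and Itga7, that of muscle, by 0.04 (-0.17 to 0.25).

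Among the collagen receptors, all of which pair with Itgb1, none passed. Itga1 differed by 0.17 ± 0.085 (SE, limma adjusted p = 0.26) and its neighbour Itga2, with 0 protein-coding genes between them, by 0.17 ± 0.081 (0.25). Both had their lowest value in pseudopregnant replicate 1. Itga10 and Itga11, receptors of cartilage and of mesenchyme, differed by -0.03 (95% confidence interval -0.21 to 0.14) and -0.06 (-0.33 to 0.21). Itga11 lay close to the filter line and below it on 1 pregnant array.

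Lamc1, the gamma chain of most laminins, was the laminin gene that rose. Its values were 9.10, 9.09, 9.06 and 9.14 against 8.79, 8.91, 8.78 and 8.86. Every pregnant array lay above every pseudopregnant array, and both groups were tight (SD 0.034 and 0.062, n = 4 each). The difference was 0.26 ± 0.051 (SE), 1.201-fold, with a limma adjusted p of 0.038. The call ended in each of the 8 fits without a single array (adjusted p 0.055 to 0.099), with the difference between 0.25 and 0.29. The beta chain Lamb1, with which Lamc1 is assembled, overlapped between the groups: its values were 8.55, 8.56, 8.54 and 8.64 against 8.51, 8.58, 8.54 and 8.53, and the difference was 0.03 (95% confidence interval -0.073 to 0.14; -0.01 with a repeated quantile normalization). Lamb2, the beta chain of muscle and vessel laminins, differed by -0.10 ± 0.064 (SE, limma adjusted p = 0.37).

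The alpha chains, which carry the binding site for integrins, had differences of both signs, and none passed. Lama5, the chain of mature epithelial and vessel basement membrane, had 7.40, 7.38, 7.40 and 7.41 against 7.54, 7.57, 7.61 and 7.46. The groups did not overlap, with the pregnant group below, and the pregnant SD was 0.012. The difference was -0.14 ± 0.050 (SE, limma adjusted p = 0.13; -0.18 to -0.12 over 18 alternatives). Lama3, the chain of the epithelial laminin bound by hemidesmosomes, was 7.82 in pregnant replicate 2 and 6.86 to 7.10 on the other pregnant arrays, against 6.97, 6.83, 6.93 and 6.70. Its difference of 0.34 ± 0.18 (SE, limma adjusted p = 0.27) became 0.13 without pregnant replicate 2. Lama4, the chain of vessel and muscle laminins, differed by 0.12 ± 0.073 (SE, limma adjusted p = 0.35) and Lama2, that of muscle and stroma, by 0.04 (95% confidence interval -0.16 to 0.25). Lama1, the chain of early embryonic laminin, was near the filter line, with 5.45 ± 0.20 against 5.44 ± 0.093 (SD, n = 4 each) and a difference of 0.01 (95% confidence interval -0.21 to 0.22; -0.09 without pregnant replicate 2). Of 9 blastocyst and trophoblast markers Pou5f1, Nanog, Cdx2, Sox2, Zfp42 and others lay below the filter. The 2 kept, Krt7 (0.27, limma adjusted p = 0.14) and Gata3 (0.05, 0.77), did not pass. The gamma chain Lamc3 was 6.43 in pregnant replicate 2 and 6.84 to 6.90 on the other pregnant arrays, and its difference of -0.09 became 0.02 without that array.

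**Figure D5:**
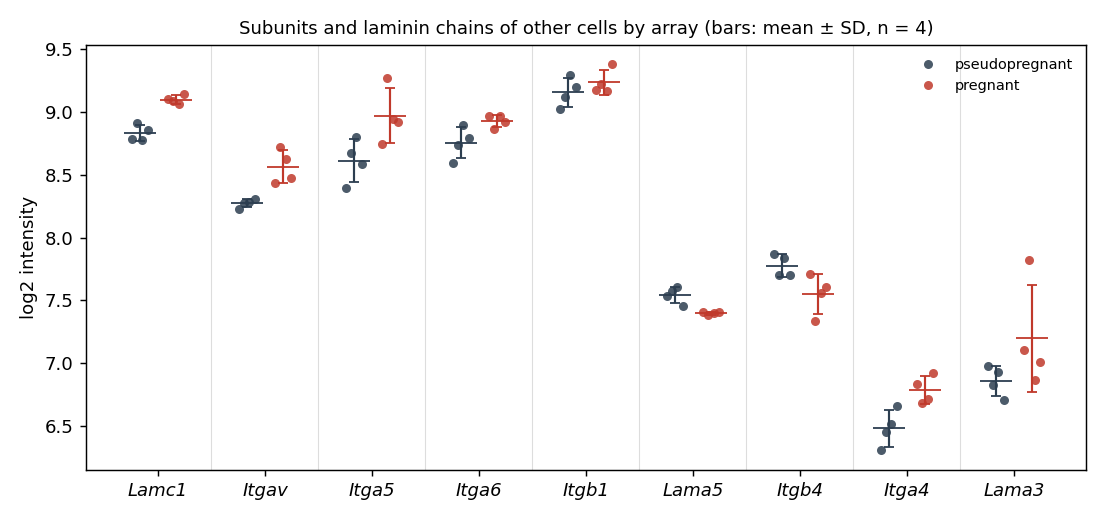
Log2 intensity of 9 integrin subunits and laminin chains on each array (points) with group means ± SD (bars, n = 4 each); levels are comparable within a gene only. Lamc1, Itgav and Itga4 are higher and Lama5 is lower in the pregnant group without overlap, and Lama3 overlaps, with pregnant replicate 2 (7.82) far above the other arrays.

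Fibronectin, the RGD protein of the stromal matrix, was read from Fn1, with 10.92, 10.9997, 10.87 and 11.02 against 10.81, 10.97, 10.76 and 10.85. The groups overlapped through pseudopregnant replicate 2, and the difference was 0.11 (95% confidence interval -0.031 to 0.25, 0.98-fold to 1.19-fold; limma adjusted p = 0.32). A probe set cannot tell the splice forms of fibronectin apart.

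Of 34 other ligands of integrins 30 had a probe set and 21 were kept, and 0 passed by limma (3 higher and 5 lower with unadjusted p under 0.05), with a median of -0.07. Tnc, the matrix protein tenascin-C, was the highest, with 7.58, 6.96, 7.35 and 7.70 against 6.49, 7.08, 6.54 and 6.11. Pregnant replicate 2 lay below pseudopregnant replicate 2, and the difference of 0.84 ± 0.20 (SE) did not pass (limma adjusted p = 0.060), except with array weights (0.92, adjusted p = 0.039). Vwf, the platelet adhesion protein of vessels, differed by -0.30 (adjusted p = 0.14) and Adam9 by 0.16 (0.18). Icam1, the ligand of the Itgb2 integrins, differed by 0.02 (95% confidence interval -0.11 to 0.15), and Cdh1, the ligand of Itgae, by -0.12 (-0.40 to 0.17). The fibrinogen genes Fga, Fgb and Fgg, whose product Itgam and Itgax bind, lay below the filter.

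Of 31 partners of laminin in the basement membrane and other laminin receptors, 30 were kept and 0 passed by limma (1 higher and 3 lower with unadjusted p under 0.05), with a median of -0.02. The 4 with the smallest p were Frem2 (-0.31, adjusted p = 0.070), Ntn4 (-0.16, 0.13), the proteoglycan Sdc1 (0.17, 0.17) and Smoc2 (-0.13, 0.19). Nidogen Nid1, which ties the gamma chain of Lamc1 to collagen IV, differed by 0.03 (95% confidence interval -0.11 to 0.17), and the laminin receptor Dag1 by -0.02 (-0.12 to 0.093). None of these genes rose under any of the 18 alternatives.

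Inside the cell, talin, kindlin, kinases and actin linkers attach integrins to the cytoskeleton. A list of 38 genes joined this machinery with other integrin partners, among them surface proteins such as Cd47. Of the 38 genes 37 had a probe set and 36 were kept. By limma 0 passed (3 higher and 1 lower with unadjusted p under 0.05), with a median of -0.03. Rap1b, the small GTPase that switches integrins on in platelets and leukocytes, had 9.21, 9.29, 9.31 and 9.25 against 8.98, 9.06, 9.11 and 9.08, without overlap. Its difference of 0.20 ± 0.051 (SE) did not pass (limma adjusted p = 0.064), except with the stricter filter (0.049) and a trended variance (0.045). The actin crosslinker Actn4 differed by 0.17 (adjusted p = 0.075; 0.044 with a trended variance), the kinase Ptk2b by -0.28 (0.12) and the integrin-associated protein Cd47 by 0.16 (0.18). Fermt3, the kindlin of blood cells, differed by 0.03 (95% confidence interval -0.18 to 0.23) and the talin Tln1 by 0.02 (-0.086 to 0.13).

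The uterine genes Pgr, Esr1, Hoxa10, Hoxa11, Emx2, Wnt7a, Foxa2, Msx1 and Myh11 were all kept by the filter. Of these 9 genes 0 passed by limma (0 higher and 2 lower with unadjusted p under 0.05), with a median difference of -0.06 and a range from -0.61 (Msx1, limma adjusted p = 0.0998) to 0.03. Their summed intensity was 3187 to 3460 on the pregnant and 3519 to 3688 on the pseudopregnant arrays, without overlap, and its part in the other values was not tested. The median difference was 0.45 for the markers common to leukocytes, 0.42 for those of macrophages and dendritic cells and 0.72 for those of NK and T cells. The last is over 7 kept genes, and the T cell genes Cd3e and Cd3g among them did not pass. Of 9 endothelial markers 0 passed and all 9 had differences below 0, with a median of -0.13 (limma; 0 higher and 3 lower with unadjusted p under 0.05). Of 9 smooth muscle markers 0 passed, with a median of -0.06 (0 higher and 3 lower), and of 10 stromal markers 0 passed, with a median of 0.08 (1 higher and 0 lower). The largest difference in each of the 3 lists was that of Tie1 (-0.30), Synpo2 (-0.28) and Pdgfrb (0.25). Summed intensities were 3265 to 3657 against 3748 to 4001 for endothelium, 10880 to 12610 against 10380 to 12270 for smooth muscle and 10850 to 11780 against 10370 to 11220 for stroma. Of 8 red blood cell markers 2 were kept and 0 passed, Slc4a1 (-0.17, limma adjusted p = 0.23) and Alas2 (-0.12, 0.34). The part of these compartments in the values of the laminin chains was not tested.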

How the data were processed

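Gene expression was measured on 8 arrays of mouse uterus, 4 pregnant and 4 pseudopregnant. The authors deposited linear probe set intensities made with RMA, per the submitters' processing notes; its version and software are not stated in what was used here. RMA aligns the distributions of the arrays (median intensity 55.2 to 56.3 here; correlations within groups 0.984 to 0.994) and compresses changes near the background. Log2 was taken here. The 6612 lowest identifiers, a run without any gene in the platform table, were taken for array controls, which is inferred from that run, and dropped. Of the other 28944 probe sets, 17494 had at least 4 arrays above the 40th percentile of their array and were tested with limma 3.58.1 in R 4.3.3 (group as the only term, two-sided), with Benjamini-Hochberg adjustment over all of them and a threshold of 0.05. The code was tested on simulated data. Python 3.11.15 and matplotlib 3.10.9 drew the figures. Gene numbers of 37 members matched RefSeq, all with the same symbol.

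The members and lists were chosen with earlier results of these data known. All members are named; of each of 3 further lists and 12 marker lists, the genes past the threshold and up to 4 of smallest p are named. Other list genes (among them Icam1, Cdh1, Nid1, Dag1, Fermt3, Tln1, and genes below the filter) were picked after their values were seen, as partners of members. Some markers without a probe set of a single symbol were not analysed here. The labels do not state that replicate numbers pair the samples, and no pairing was used in the main fit. Deviations from the group means correlated by 0.25, 0.016, -0.10 and 0.044 for numbers 1 to 4. These values cannot exclude a shared batch. That the replicates are separate animals rests on the labels' wording, and 4 arrays in a group limit the precision. The 18 alternatives covered filters, normalization, weights, variance model, probe set choice, controls, a replicate block and single arrays left out.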

Additional observations from a re-analysis of the deposited data

Results flagged for a closer look

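In 70 groups of 4 arrays (35 genes in 2 groups), 2 had an array farther from the rest than Dixon's critical value at the 95% level allows, where chance gives about 1 in 20. The laminin chain Lamc3 was 6.43 in pregnant replicate 2, against 6.84 to 6.90 on the other pregnant arrays. The laminin receptor Itga3 was 6.71 in pseudopregnant replicate 3, against 6.58 to 6.60 on the other pseudopregnant arrays.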

How the results depend on the processing

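The count of 4 genes that rose was 0 without an intensity filter, 1 with the array controls kept in, 2 with the replicate number as a block (Itgam and Itgb2) and 0 to 3 without single arrays. The count of 3 leukocyte subunits was 0 without a filter, 1 with controls kept in, 1 with the stricter filter, which removes Itgam and Itgax, and 0 to 3 without single arrays. The drop with no filter or with controls comes with more probe sets tested, and the values of the genes are the same. Over all probe sets 319 calls became 54 without a filter, 70 with controls, 174 with the block and 708 with a trended robust variance, and 40 to 235 without single arrays. Adhesion machinery genes counted 1 with the stricter filter and 2 with a trended variance, and other ligands 1 with array weights, against 0. The counts of integrin and laminin genes that fell and of basement membrane genes that rose stayed at 0 under all 18. The 4 genes that rose kept their direction under every alternative that could be fitted. The sign of the difference turned for 12 genes. The largest of these differences in size was that of Itga8, 0.13 with all arrays and -0.018 without pregnant replicate 2. With array weights Itga9 was 0.015, Lama1 -0.036 and Itgae 0.018. Itgae was 0.0039 with median centring, 0.025 with a repeated quantile normalization and 0.041 with cyclic loess. Under the latter 2, Itgb8 was -0.0103 and -0.0024, and Lamb1 -0.012 and -0.0058. Without single arrays the ranges were -0.0103 to 0.12 for Itga7, -0.018 to 0.29 for Itga8, -0.051 to 0.022 for Itga9, -0.069 to 0.040 for Itga10, -0.18 to 0.029 for Itga11, -0.078 to 0.047 for Itgae, -0.047 to 0.13 for Itgb5, -0.013 to 0.102 for Itgb8, -0.091 to 0.054 for Lama1, -0.036 to 0.12 for Lama2 and -0.15 to 0.018 for Lamc3; the cause was not tested. Differences of genes near the filter line (Itgae, Itgb7, Itga11, Lama1) may be understated. Itgax also came near it in pseudopregnant replicate 2, with 5.34 against a line of 5.24 on that array.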
